A study of Mus musculus with 14 samples.

Results

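The genes described here encode laminins, integrins, and the proteins that join them in the basement membrane. They were taken from the deposited count table by a rule on the gene symbol that uses no measured value. The choice gave 11 laminin chain genes, 18 integrin alpha subunit genes, 8 integrin beta subunit genes, and 5 further genes (*Nid1*, *Nid2*, *Hspg2*, *Agrn*, and *Dag1*), which makes 42 of 24062 genes in the table. All 42 were placed in the GENCODE annotation of mm10. Bulk RNA-seq had been performed on 14 libraries from untreated mice of a mixed C57BL/6, I-129 and FVBN background. The 3 control libraries (DRG3, DRG4, and DRG5) came from dorsal root ganglia (DRGs) with their nerves of Nf1fl/fl mice, which carry the floxed alleles without Cre. The 11 plexiform neurofibromas (PNs) came from DhhCre;Nf1fl/fl mice, in which Cre is driven by the *Dhh* promoter in the Schwann cell (SC) lineage, so the other cells of the tumor keep *Nf1*. By MRI at 7 and 9 months of age, 5 PNs had altered in volume by less than 5 mm3 (slow-growing; mice 1079, 1198A, 1202, 1203, and 1206) and 6 had grown by more than 35 mm3 (fast-growing; mice 1053, 1071, 1179, 1191, 1214, and 1216). For the age at collection the sources name 9 months in one place and 7 months in another.

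A basement membrane is a thin sheet of matrix that ensheathes each SC and its axon, and also surrounds muscle fibers, fat cells, and blood vessels. Its laminins are trimers of an alpha, a beta, and a gamma chain. They polymerize at the cell surface, are tied to the collagen IV network by nidogens, and carry the heparan sulfate proteoglycans perlecan (*Hspg2*) and agrin (*Agrn*). Cells hold the sheet through dystroglycan (*Dag1*) and through integrins, each a pair of 1 alpha and 1 beta subunit. In peripheral nerve, laminin alpha 2 and laminin gamma 1 chains made by SCs are needed for sorting and myelination of axons, and integrins alpha 6 beta 1 and alpha 6 beta 4 and dystroglycan are among the known SC laminin receptors.

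The libraries held between 9596773 and 17594164 counts on genes, and 3 counts corresponded to between 0.166 and 0.317 CPM (CPM being read counts scaled to library size with TMM factors, the unit of all levels here), a floor that covers counting error only. *Nf1* was measured at 131 to 229 CPM in the controls and at 224 to 293 CPM in the PNs. These counts cover the whole gene with its floxed exons, so the level does not check the genotype. Defining markers of SCs and neurons were present in controls and PNs, with 1 exception. Fast-growing PN 1191 had 0.756 CPM of *Rbfox3* and 0.0756 CPM of *Isl1*, both neuronal genes, against at least 24.3 and 7.60 CPM in every other library. Marker lists of other tissues and cells also differed in level, with controls above all PNs for muscle and fat and with controls and PNs overlapping for fibroblast, SC, and endothelial markers. Of the 15 skeletal muscle markers, 9 fell in all PNs and 13 in fast-growing PNs. They summed to between 4031 and 16254 CPM in controls, 33.0 and 3741 in slow-growing PNs, and 88.2 and 2453 in fast-growing PNs. The 13 fat markers, of which 3 fell in all PNs and 13 in fast-growing PNs, summed to between 4826 and 6700, 54.9 and 3884, and 65.2 and 420 CPM in the same order. Of the 9 fibroblast markers, 1 rose in all PNs, and in fast-growing PNs 7 rose and 1 (*Dpt*) fell. They summed to between 3018 and 6090, 2182 and 11819, and 9991 and 19333 CPM. Of 15 SC markers 6 rose in all PNs, and their mean log2(CPM + 1) was 8.15 in DRG3, 6.94 in DRG4, 6.68 in DRG5, and 7.83 to 8.83 in the PNs. Of 11 endothelial markers 3 fell in all PNs and 6 in fast-growing PNs. Their sums were 464 to 614, 138 to 657, and 182 to 477 CPM. Over all genes tested, 12.9% rose and 13.4% fell in all PNs, and 14.8% and 16.7% in fast-growing PNs. The keratinocyte gene *Krt15* was at 0 in every PN, and no other marker was at 0 throughout a group. In whole tissue, fewer cells of a type and less RNA per cell cannot be told apart. No source used here gives sex or batch per library, and the tissue and the group cannot be told apart. The p-values measure the spread between these libraries.

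Start sites of 27 of the 42 members were in the RefSeq promoter table (GRCm38.p6), with 32 start sites in all, and the sequences below are credited to it. The upstream 250 bases are shown for 6 members whose window lay wholly outside their own annotated gene: 5 that were called higher in PNs and *Itga8*, which was called lower in fast-growing PNs. Capitals mark the GC box GGGCGG or its reverse complement, the element bound by Sp1-family factors. The windows are chr4:156197489-156197738 for *Agrn* (minus strand), chr9:108263959-108264208 for *Dag1* (minus), chr8:128685404-128685653 for *Itgb1* (plus), chr2:83724147-83724396 for *Itgav* (plus), chr13:114932101-114932350 for *Itga2* (minus), and chr2:12301945-12302194 for *Itga8* (minus).
Agrn: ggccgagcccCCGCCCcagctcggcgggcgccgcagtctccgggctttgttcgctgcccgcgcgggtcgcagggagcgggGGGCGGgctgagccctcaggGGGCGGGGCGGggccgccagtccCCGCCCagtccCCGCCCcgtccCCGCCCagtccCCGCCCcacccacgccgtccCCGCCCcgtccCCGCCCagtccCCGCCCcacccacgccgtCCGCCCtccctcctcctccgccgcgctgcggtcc
Dag1: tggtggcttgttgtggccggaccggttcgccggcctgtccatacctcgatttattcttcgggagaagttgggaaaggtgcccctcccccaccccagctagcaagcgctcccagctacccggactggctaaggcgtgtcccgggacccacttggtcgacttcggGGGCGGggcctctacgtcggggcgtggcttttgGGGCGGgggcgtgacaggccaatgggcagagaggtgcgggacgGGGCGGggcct
Itgb1: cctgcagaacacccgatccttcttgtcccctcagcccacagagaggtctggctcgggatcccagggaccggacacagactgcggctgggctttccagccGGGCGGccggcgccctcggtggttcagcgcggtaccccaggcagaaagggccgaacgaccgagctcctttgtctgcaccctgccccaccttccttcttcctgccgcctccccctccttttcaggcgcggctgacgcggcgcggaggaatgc
Itgav: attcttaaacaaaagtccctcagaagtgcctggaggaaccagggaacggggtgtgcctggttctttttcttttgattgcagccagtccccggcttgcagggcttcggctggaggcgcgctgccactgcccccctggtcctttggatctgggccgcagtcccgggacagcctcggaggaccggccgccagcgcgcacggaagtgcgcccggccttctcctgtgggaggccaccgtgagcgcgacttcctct
Itga2: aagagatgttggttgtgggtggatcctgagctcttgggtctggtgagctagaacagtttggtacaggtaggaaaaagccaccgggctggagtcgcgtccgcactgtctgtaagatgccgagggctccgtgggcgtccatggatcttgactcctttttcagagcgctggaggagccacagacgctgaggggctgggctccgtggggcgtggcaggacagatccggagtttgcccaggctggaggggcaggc
Itga8: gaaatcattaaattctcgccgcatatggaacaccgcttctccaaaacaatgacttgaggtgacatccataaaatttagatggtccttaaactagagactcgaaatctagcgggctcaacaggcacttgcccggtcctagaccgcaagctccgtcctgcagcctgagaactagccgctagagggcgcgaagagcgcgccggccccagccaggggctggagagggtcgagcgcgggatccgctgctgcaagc

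The window of *Agrn* was 83.6% G or C and held 12 matches to the GC box, overlapping matches counted, that of *Dag1* held 3, and that of *Itgb1* held 1. No match lay in the windows of *Itgav*, *Itga2*, or *Itga8*. Over both strands, the GC box occurred in 15 of the 32 member windows (46.9%) and in 32.7% of all 32851 windows in the table, and the median G and C content was 60.8% and 52.4%, respectively. The TEAD motif GGAATG occurred in 4 member windows (12.5%, against 12.6% of all windows). The CCAAT box CCAAT occurred in 7 (21.9% against 33.8%), the AP-1 motif TGANTCA in 1 (3.13% against 6.75%, the window of *Itgax*), and the TATA box TATAAA in 0 (against 12.4%). A match is a string of letters in this window and no measure of binding.

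Of the 42 members, 41 passed the expression filter of edgeR against controls, and *Itgad*, a leukocyte integrin subunit, did not. When all 11 PNs were compared with the 3 controls, 11 members rose (26.8% of those tested, against 12.9% of all 16283 genes tested) and 2 fell (4.88%, against 13.4% of all genes). The members that rose were *Lama2*, *Lamc1*, *Nid1*, *Nid2*, *Hspg2*, *Agrn*, *Dag1*, *Itgb1*, *Itgb8*, *Itgav*, and *Itga2*, and those that fell were *Itgb6* and *Itga2b*. The 5 genes of nidogens, perlecan, agrin, and dystroglycan all rose, as did 2 of 11 laminin chains, 2 of 8 beta subunits, and 2 of 17 alpha subunits. The median log2 fold change was 0.33 over the members, 1.52 over the nidogens, perlecan, agrin, and dystroglycan, and 0.10 over all genes tested. A gene was called when the quasi-likelihood test of edgeR gave it a p under 0.05 after Benjamini-Hochberg adjustment.

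The growth groups differed in how many members passed that test against the same 3 controls. In fast-growing PNs 16 members rose (39.0%, against 14.8% of 16037 genes) and 4 fell (9.76%, against 16.7%). In slow-growing PNs 1 rose (*Agrn*; 2.44%, against 4.12% of 15714 genes) and 2 fell (*Itgb6* and *Itgb7*; 4.88%, against 7.13%). The 16 were the 11 named above with *Lama4*, *Lama5*, *Lamb1*, *Itga1*, and *Itga10*, and the 4 were *Itgb6*, *Itga2b*, *Itga8*, and *Itga11*. Every fast-growing PN lay above every control for 15 members, which is a share to be read beside the 17.3% of all genes tested that did so. A call in one growth group and not in the other does not show that the groups differ. Compared directly, with 40 members tested, fast-growing PNs exceeded slow-growing PNs in 1 member, *Itgax* (2.50%, against 0.802% of 15465 genes), and fell below them in 0 (against 0.466%). DESeq2 called 12 members higher and 0 lower in that comparison, where it called 1570 genes in all against 196 by edgeR. At an unadjusted p under 0.05, edgeR gave 19 members higher (11.9% of all genes) and 3 lower (8.51%), and the median log2 fold change was 0.59 over the members and -0.03 over all genes. The log2 fold change was above 0 for 32 of the 40 members. Every fast-growing PN lay above every slow-growing PN for 5 of them (*Lama2*, *Nid1*, *Itgb1*, *Itgav*, and *Itgax*), against 2.10% of all genes.

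**Figure D1:**
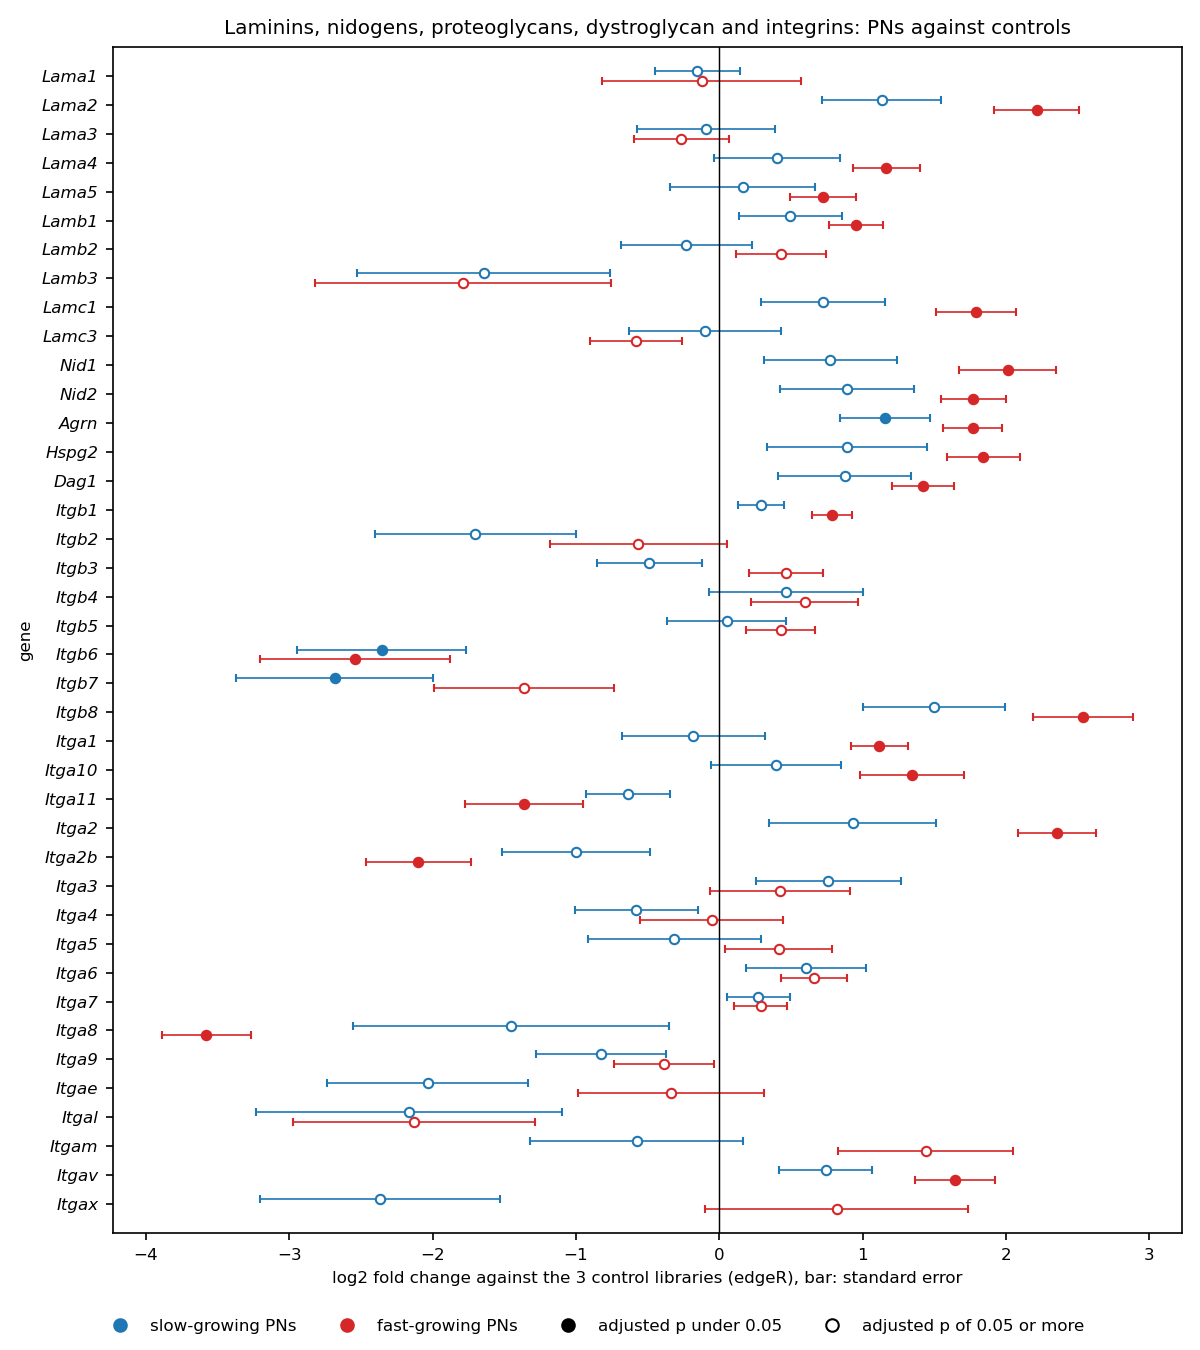
Log2 fold change (x axis) of each of 40 tested members (y axis) against the 3 controls, with its standard error as a bar, for slow-growing PNs (blue) and fast-growing PNs (red); filled points passed an adjusted p under 0.05. In fast-growing PNs 16 members passed on the right and 4 on the left, and in slow-growing PNs 1 and 2, with *Nid1*, *Lama2*, *Itgb8*, and *Itga2* above a log2 fold change of 2 in fast-growing PNs.

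These counts moved with single libraries and covariates. Control DRG3 stood apart from DRG4 and DRG5 and was the highest control for 25 of 42 members and the lowest for 14. Slow-growing PN 1203 was the lowest of its group for 34 members, and fast-growing PN 1191 the highest of its group for 23. The mean log2(CPM + 1) of 15 sensory neuron markers was highest in PN 1203 (9.52) and lowest in PN 1191 (1.65), and was 6.44 to 8.15 in controls and 6.89 to 8.78 in the other PNs. PN 1203 also had the lowest fibroblast (6.75) and endothelial (3.55) values of all libraries, and PN 1191 the highest fibroblast value (9.85). In the comparison of all PNs with controls, 4283 genes were called in either direction. Without DRG4 1 member rose and 2476 genes were called, without DRG5 1 member and 2061 genes, without DRG3 13 members and 4264 genes, and without slow-growing PN 1203 14 members and 4779 genes. Without any 1 of slow-growing PN 1198A and the 6 fast-growing PNs, 6 or 7 members rose and 3667 to 4265 genes were called. *Agrn* rose in every fit that left out a library, and the calls of *Lama2*, *Nid2*, *Dag1*, *Itgb8*, *Itgav*, and *Itga2b* were each lost without DRG4 and without DRG5. For fast-growing PNs against controls, 14 to 17 members rose across the 9 fits with 1 library left out, in which 3342 (without DRG5) to 5247 genes (without DRG3) were called in either direction, against 5043 with all libraries. Between fast- and slow-growing PNs, 12 members were higher without slow-growing PN 1198A (1194 genes called), 3 without 1203 (578 genes), 1 without fast-growing PN 1071 (372 genes), and 0 without any 1 of the other 8 PNs (2 to 65 genes). With muscle and fat marker scores as covariates, 0 members passed in any comparison (0 of all genes for slow-growing and for fast-growing PNs, 452 for all PNs against controls, where 4283 passed without them). Every control lay above every PN in both scores, so the fits against controls can hardly separate group from score. The muscle score was at least 7.67 in controls and at most 7.29 in PNs, and the fat score at least 7.91 and at most 7.25. With the SC marker score as a covariate, chosen after seeing the data, 0 rose and 1 fell for all PNs (1278 genes called in either direction), while 16 rose and 1 fell for fast-growing PNs (3973 genes). Of these 16, 14 had also risen without the covariate, *Lama5* and *Lamb1* were lost, and *Itgam* and *Itgax* were added. The part of these markers in the changes was not tested further.

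**Figure D2:**
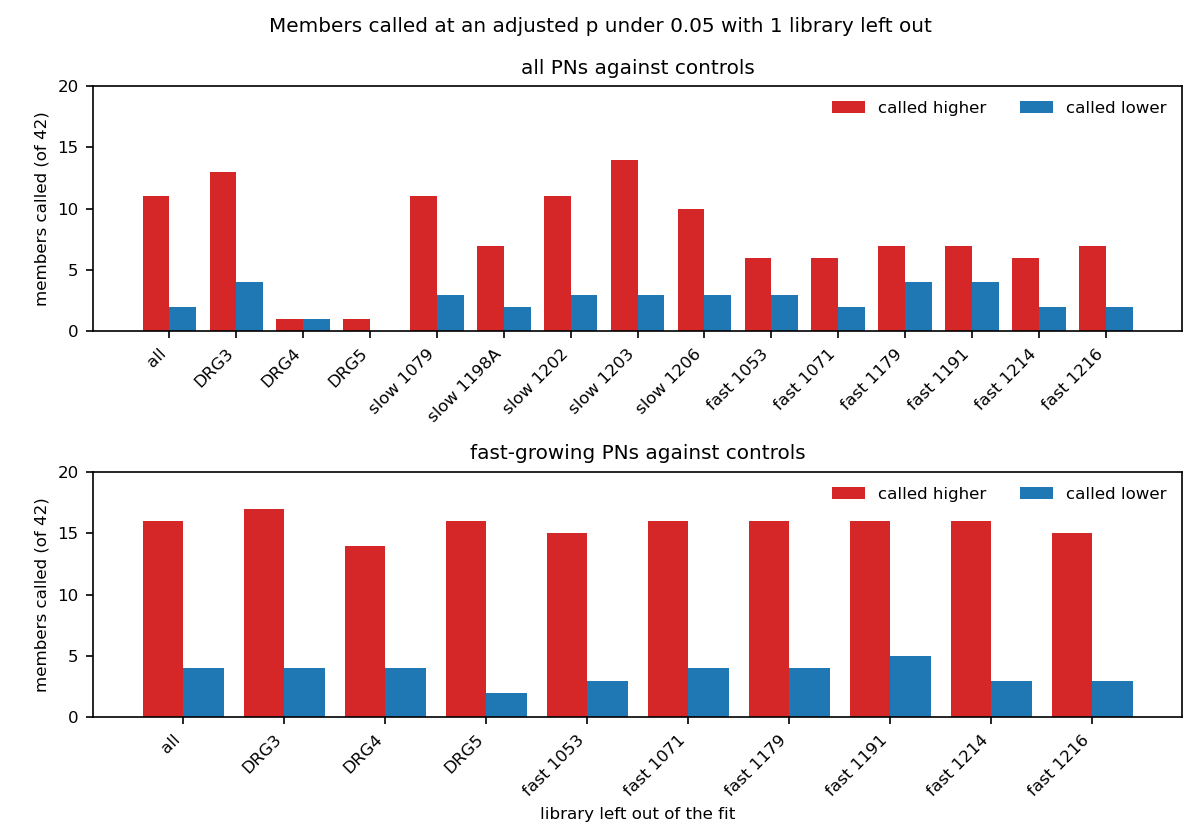
Number of members called higher (red) and lower (blue) at an adjusted p under 0.05 (y axis, of 42) with all libraries and with each library left out (x axis), for all PNs against controls (top) and fast-growing PNs against controls (bottom). The number called higher falls to 1 without DRG4 or DRG5 in the upper panel and stays between 14 and 17 in the lower panel.

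The laminin alpha 2 chain gene *Lama2* (chr10:26980036-27619758, minus strand), mutated in a congenital muscular dystrophy with neuropathy, rose most among the laminin chains. It was measured at 202 CPM in DRG3, 110 in DRG4, and 97.8 in DRG5. In slow-growing PNs it was at 350 (1079), 470 (1198A), 243 (1202), 139 (1203), and 331 CPM (1206), and in fast-growing PNs the lowest, median, and highest levels were 477, 630, and 897 CPM. Fast-growing PNs lay above every other library, while slow-growing PN 1203 lay within the range of controls. The log2 fold change was 1.86 for all PNs (standard error 0.48, edgeR adjusted p = 0.012) and 2.21 for fast-growing PNs (0.30, edgeR adjusted p = 0.000548). Between fast- and slow-growing PNs it was 1.09 (0.28), and the test was missed (edgeR adjusted p = 0.0666).

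The laminin alpha 4 chain gene *Lama4* (chr10:38965515-39110188, plus), found in vessels, fat, muscle, and nerve, was measured at 209, 131, and 119 CPM in DRG3, DRG4, and DRG5. Its levels were 193, 374, 151, 86.6, and 236 CPM in slow-growing PNs 1079, 1198A, 1202, 1203, and 1206, and 289, 334, and 490 CPM as the lowest, median, and highest of fast-growing PNs. The slow-growing PNs spanned the controls, and the fast-growing PNs lay above all controls. It rose in fast-growing PNs (log2 fold change 1.17, standard error 0.23, edgeR adjusted p = 0.00474) and missed the test for all PNs (0.91, 0.41, edgeR adjusted p = 0.112).

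The beta chains *Lamb1* (chr12:31265234-31329644, plus) and *Lamb2* (chr9:108479736-108490530, plus) gave different values. *Lamb1* was at 170, 97.8, and 97.0 CPM in DRG3, DRG4, and DRG5, at 199, 193, 141, 87.4, and 256 CPM in slow-growing PNs 1079, 1198A, 1202, 1203, and 1206, and at 218, 245, and 269 CPM as the lowest, median, and highest of fast-growing PNs. It rose in fast-growing PNs (log2 fold change 0.95, standard error 0.19, edgeR adjusted p = 0.00447), in which every level lay above every control. For all PNs the test was narrowly missed (0.80, 0.30, edgeR adjusted p = 0.0581). *Lamb2*, the beta chain of mature synaptic and nerve basement membranes, was at 133, 73.6, and 75.8 CPM in controls, at 97.6, 125, 69.6, 24.5, and 93.6 CPM in slow-growing PNs in the same order, and at 75.2, 137, and 173 CPM in fast-growing PNs. Its groups overlapped throughout and no comparison passed (fast-growing PNs against controls 0.43, standard error 0.32, edgeR adjusted p = 0.341).

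The gamma 1 chain gene *Lamc1* (chr1:153218922-153332786, minus), the gamma chain of most laminins, was measured at 295, 167, and 165 CPM in DRG3, DRG4, and DRG5. In slow-growing PNs it was at 364, 577, 278, 142, and 407 CPM, and in fast-growing PNs at 557, 678, and 1051 CPM as lowest, median, and highest. Fast-growing PNs again lay above all controls, and 1 slow-growing PN, 1198A, reached their range. It rose in all PNs (log2 fold change 1.44, standard error 0.48, edgeR adjusted p = 0.0396) and in fast-growing PNs (1.79, 0.28, edgeR adjusted p = 0.00125), and the call for all PNs was lost in 9 of the 14 fits that left out a library. *Lama5*, an alpha chain of vessel and epithelial basement membranes, lies outside the rule for named genes and was picked after its values were seen. It rose in fast-growing PNs (48.1 ± 11.3 CPM, SD, against 28.2 ± 6.77 in controls, log2 fold change 0.72, standard error 0.23, edgeR adjusted p = 0.0392), with 1 fast-growing PN within the range of controls. The call was lost in 5 of 9 fits that left out a library, with limma-voom, and in 1 fit of all libraries. *Lama1*, *Lama3*, *Lamb3*, and *Lamc3* had group means between 0.468 and 12.8 CPM and passed no comparison in which they were tested.

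Within the alpha chains, the balance shifted toward *Lama2*. Each level was divided by the length of the longest annotated transcript, since only levels per length can be compared between genes. *Lama2* then made up 32.1% ± 2.17 (SD) of the alpha chain sum in the 3 controls, 45.9% ± 3.31 in the 5 slow-growing PNs, and 51.2% ± 5.16 in the 6 fast-growing PNs, and *Lama4* made up 58.5% ± 1.20, 47.8% ± 3.70, and 44.5% ± 4.60. The ratio of *Lama4* to *Lama2* counts, which does not depend on scaling between libraries, was 1.04 in DRG3, 1.19 in DRG4, and 1.22 in DRG5. It lay between 0.552 and 0.797 in the slow-growing PNs and between 0.408 and 0.705 in the fast-growing PNs, so every PN fell below every control, DRG3 included. The mean log2 ratio was 0.95 lower in PNs (exact two-sided permutation test, p = 0.00275, the smallest these 364 arrangements can give, adjusted p = 0.022 over 8 tests). Without any 1 of the 3 controls the design cannot pass, and the adjusted p of the exact permutation test was 0.103.

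The ratio of *Lamb1* to *Lamb2* was 1.27, 1.33, and 1.28 in the 3 controls, which lay close together. It ranged from 1.54 to 3.56 in slow-growing PNs, all above the controls, and from 1.26 to 3.57 in fast-growing PNs, with fast-growing PN 1053 at the lower end below the controls. The mean log2 ratio was 0.69 higher in PNs (exact two-sided permutation test, p = 0.033, adjusted p = 0.132 over 8 tests). This difference did not pass after adjustment. The ratios of *Itgb4* to *Itgb1* and of *Nid2* to *Nid1* overlapped between PNs and controls (differences of -0.01 and -0.11 in log2, exact permutation adjusted p = 0.978 and 0.738). None of the 4 ratios passed between fast- and slow-growing PNs, where the smallest adjusted p of the exact permutation test was 0.329, for *Lama4* to *Lama2*.

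**Figure D3:**
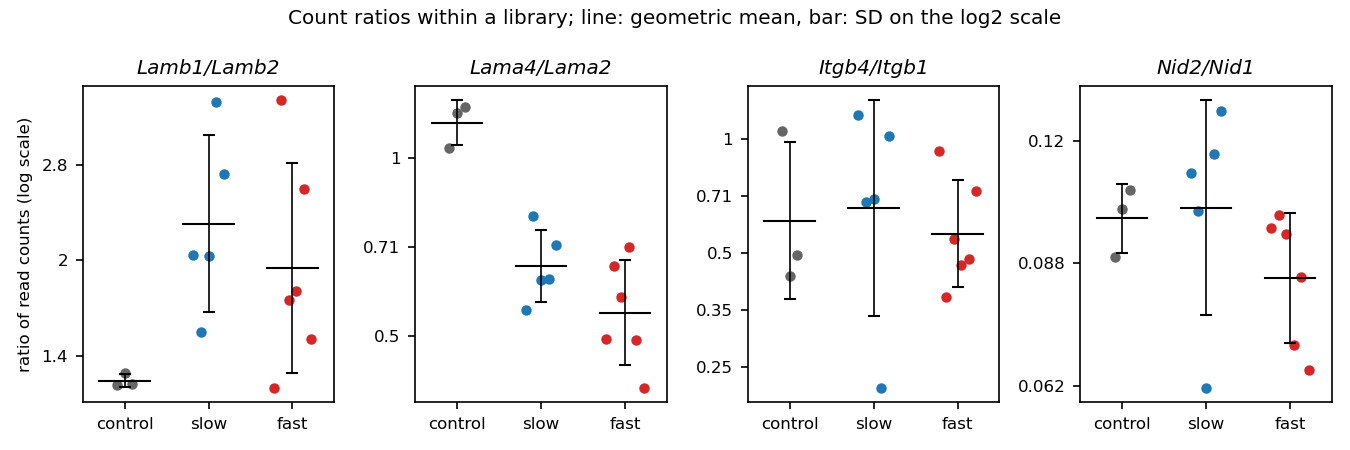
Ratio of read counts within each library (y axis, log scale) by group (x axis) for 4 gene pairs; points are libraries, lines geometric means, and bars 1 SD on the log2 scale (n = 3, 5, and 6). For *Lama4*/*Lama2* the 3 controls lie between 1.04 and 1.22 and all 11 PNs between 0.408 and 0.797.

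Nidogen-1 (*Nid1*, chr13:13437551-13512269, plus), which bridges laminin gamma 1 and collagen IV, had the highest level per length of the matrix proteins in all 3 groups (50.4, 88.3, and 209 CPM per kilobase as means of controls, slow-growing, and fast-growing PNs). It was at 468, 236, and 218 CPM in DRG3, DRG4, and DRG5, at 554, 821, 522, 189, and 604 CPM in slow-growing PNs 1079, 1198A, 1202, 1203, and 1206, and at 937, 1138, and 1844 CPM as the lowest, median, and highest of fast-growing PNs. All fast-growing PNs lay above all slow-growing PNs and controls, and slow-growing PN 1203 lay below every control. The log2 fold change was 1.61 for all PNs (standard error 0.54, edgeR adjusted p = 0.0411), 2.01 for fast-growing PNs (0.34, edgeR adjusted p = 0.00188), and 1.24 between fast- and slow-growing PNs (0.33, edgeR adjusted p = 0.0696). The call for all PNs was lost in 9 of 14 fits with a library left out and that for fast-growing PNs in 0 of 9.

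Nidogen-2 (*Nid2*, chr14:19751265-19811787, plus), its paralog, was at 42.1, 24.3, and 23.6 CPM in controls, at 63.1, 84.0, 32.4, 22.7, and 82.3 CPM in slow-growing PNs, and at 79.6, 104, and 129 CPM in fast-growing PNs. Slow-growing PN 1202 lay within the range of controls, 1203 just below it, and every fast-growing PN above all controls. It rose in all PNs (log2 fold change 1.48, standard error 0.45, edgeR adjusted p = 0.0263) and in fast-growing PNs (1.77, 0.23, edgeR adjusted p = 0.000454).

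Perlecan (*Hspg2*, chr4:137468769-137570630, plus) was measured at 399, 215, and 219 CPM in DRG3, DRG4, and DRG5. It was at 478, 869, 296, 161, and 828 CPM in slow-growing PNs 1079, 1198A, 1202, 1203, and 1206, and at 772, 996, and 1248 CPM in fast-growing PNs. The slow-growing PNs spread widely, with 1198A and 1206 within the range of fast-growing PNs, 1079 between that range and the controls, 1202 within the range of controls, and 1203 below every control. It rose in all PNs (log2 fold change 1.52, standard error 0.52, edgeR adjusted p = 0.0423) and in fast-growing PNs (1.84, 0.25, edgeR adjusted p = 0.000664), and the call for all PNs was lost in 10 of 14 fits with a library left out.

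Agrin (*Agrn*, chr4:156165290-156197488, minus), known for its part in the neuromuscular junction and as a ligand of dystroglycan, was the only member to rise in slow-growing PNs. It was at 57.7, 38.5, and 37.8 CPM in DRG3, DRG4, and DRG5, at 99.6, 123, 78.6, 62.3, and 146 CPM in slow-growing PNs, and at 123, 167, and 181 CPM in fast-growing PNs. Every PN of both growth groups lay above every control, which was so for 2 of 41 members and for 8.19% of all genes. The log2 fold change was 1.56 for all PNs (standard error 0.31, edgeR adjusted p = 0.00241), 1.16 for slow-growing PNs (0.31, edgeR adjusted p = 0.048), and 1.77 for fast-growing PNs (0.20, edgeR adjusted p = 0.000236). The call in slow-growing PNs was lost in 6 of 8 fits with a library left out.

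Dystroglycan (*Dag1*, chr9:108204634-108263958, minus), the receptor that links laminin and agrin to the cytoskeleton, had the highest level per length of all 42 members in controls (81.9 CPM per kilobase). It was at 635, 387, and 369 CPM in DRG3, DRG4, and DRG5. In slow-growing PNs it ranged widely, at 778, 1581, 610, 362, and 1026 CPM, and in fast-growing PNs it lay at 1084, 1253, and 1552 CPM, above all controls. It rose in all PNs (log2 fold change 1.24, standard error 0.39, edgeR adjusted p = 0.0283) and in fast-growing PNs (1.42, 0.22, edgeR adjusted p = 0.00113).

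**Figure D4:**
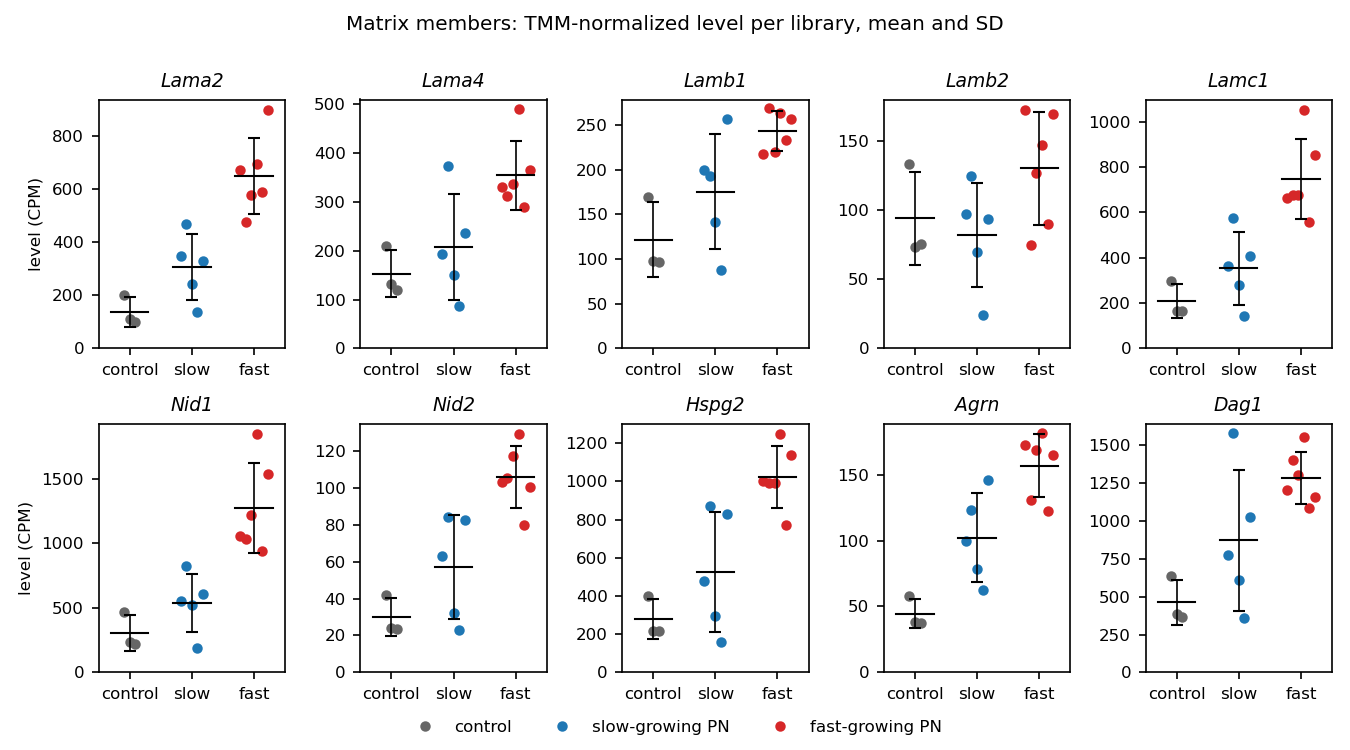
Level in CPM (y axis) of 9 matrix genes and dystroglycan in each library (points) by group (x axis), with mean (line) and SD (bar), n = 3, 5, and 6. The fast-growing PNs lie above every control except for *Lamb2*, and DRG3 is the highest control in each panel.

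The beta 1 subunit gene *Itgb1* (chr8:128685654-128733200, plus), the partner of most laminin-binding alpha subunits, rose by a smaller factor with little spread. It was at 284, 262, and 244 CPM in DRG3, DRG4, and DRG5, at 310, 374, 297, 327, and 351 CPM in slow-growing PNs, and at 429, 449, and 563 CPM in fast-growing PNs. Neither growth group overlapped the controls or the other growth group. Every slow-growing PN lay above every control for 2 of 41 members and for 11.1% of all genes. For fast-growing PNs this share of all genes was 17.3% against controls and 2.10% against slow-growing PNs. *Itgb1* missed the test in slow-growing PNs against controls (log2 fold change 0.29, standard error 0.16, edgeR adjusted p = 0.245). The log2 fold change was 0.63 for all PNs (standard error 0.19, edgeR adjusted p = 0.0277), 0.79 for fast-growing PNs (0.14, edgeR adjusted p = 0.00273), and 0.50 between fast- and slow-growing PNs (0.12, edgeR adjusted p = 0.0572), which missed the test. The call for all PNs was lost without any 1 of DRG4, DRG5, 1053, 1071, and 1214 (edgeR adjusted p up to 0.133), and with muscle and fat covariates the value turned to -0.014. Its share of the beta subunit sum per length was 45.5% ± 1.54, 52.9% ± 11.9, and 49.6% ± 3.70 in controls, slow-growing, and fast-growing PNs.

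The beta 8 subunit gene *Itgb8* (chr12:119158022-119238802, minus), which pairs with alpha V and activates TGF-beta, had the largest fold change of the members called higher against controls. It was at 88.6, 38.5, and 38.4 CPM in DRG3, DRG4, and DRG5, at 178, 271, 83.4, 81.0, and 183 CPM in slow-growing PNs, and at 224, 326, and 480 CPM in fast-growing PNs. Slow-growing PNs 1202 and 1203 lay just below DRG3 and the other 9 PNs above it. It rose in all PNs (log2 fold change 2.19, standard error 0.53, edgeR adjusted p = 0.00819) and in fast-growing PNs (2.54, 0.35, edgeR adjusted p = 0.000684). Its share of the beta subunit sum per length went from 4.25% ± 1.97 to 10.6% ± 3.38 and 15.7% ± 3.38. Its partner *Itgav* (chr2:83724397-83806916, plus), an RGD-binding alpha subunit, was at 137, 100.5, and 106 CPM in controls, at 242, 244, 142, 105, and 249 CPM in slow-growing PNs, and at 271, 332, and 574 CPM in fast-growing PNs. All fast-growing PNs lay above the slow-growing PNs. The test between these groups was missed (log2 fold change 0.91, standard error 0.28, edgeR adjusted p = 0.0973). The share of *Itgav* in the alpha subunit sum per length went from 10.7% ± 1.49 in controls to 17.2% ± 0.997 in slow-growing and 22.3% ± 2.14 in fast-growing PNs. *Itgav* rose in all PNs (1.34, 0.41, edgeR adjusted p = 0.0255) and in fast-growing PNs (1.65, 0.28, edgeR adjusted p = 0.00198).

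The SC laminin receptor genes *Itgb4* (chr11:115974709-116008412, plus) and *Itga6* (chr2:71745616-71858416, plus) did not pass. *Itgb4* was at 299, 114, and 121 CPM in DRG3, DRG4, and DRG5, at 360, 256, 207, 71.8, and 357 CPM in slow-growing PNs, and at 173, 252, and 404 CPM in fast-growing PNs. Its log2 fold change was 0.57 for all PNs (standard error 0.42, edgeR adjusted p = 0.343), and DRG3 lay above 4 fast-growing PNs. *Itga6* was at 297, 159, and 164 CPM, at 417, 342, 232, 140, and 477 CPM, and at 280, 330, and 436 CPM in the same order. Its log2 fold change was 0.67 for all PNs (0.31, edgeR adjusted p = 0.12) and 0.66 for fast-growing PNs (0.23, edgeR adjusted p = 0.056). It had the largest share of the alpha subunit sum per length in each group (31.6% ± 10.8, 45.1% ± 5.71, and 34.2% ± 3.97). *Itga7* (chr10:128933818-128958282, plus), an alpha subunit of muscle and nerve that binds laminin with beta 1, was at 40.0, 26.7, and 25.0 CPM, at 41.1, 27.0, 39.0, 39.8, and 42.7 CPM, and at 31.7, 37.8, and 49.7 CPM. Its groups overlapped, with a log2 fold change of 0.33 for all PNs (0.18, edgeR adjusted p = 0.208).

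The collagen-binding alpha subunits moved apart from each other. *Itga2* (chr13:114833081-114932100, minus) was at 8.55, 12.7, and 13.7 CPM in DRG3, DRG4, and DRG5, at 17.2, 49.6, 8.42, 9.94, and 28.8 CPM in slow-growing PNs, and at 49.2, 56.9, and 91.5 CPM in fast-growing PNs. It is a member for which DRG3 was the lowest control, and it rose in all PNs (log2 fold change 1.92, standard error 0.65, edgeR adjusted p = 0.0418) and in fast-growing PNs (2.36, 0.27, edgeR adjusted p = 0.000253). The call for all PNs was lost in 10 of 14 fits with a library left out and that for fast-growing PNs in 0 of 9, and with muscle and fat covariates the value for all PNs turned to -0.46. In fast-growing PNs, *Itga1* (144 ± 29.6 CPM against 64.3 ± 3.90, SD) and *Itga10* (10.7 ± 3.87 CPM against 4.07 ± 0.997) also rose (log2 fold changes 1.12 and 1.34, edgeR adjusted p = 0.00248 and 0.0198). The call of *Itga10* was lost without DRG3 or DRG4 (edgeR adjusted p up to 0.0835) and with limma-voom, and that of *Itga1* in 1 fit of all libraries. *Itga11* (6.60 ± 3.89 CPM against 16.4 ± 4.78) fell there (-1.36, standard error 0.41, edgeR adjusted p = 0.0309) and lost the call in 6 of 9 fits with a library left out. These 3 genes lie outside the rule for named genes and were chosen after their values were seen.

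*Itga8* (chr2:12106632-12301922, minus), whose subunit pairs with beta 1 and binds nephronectin, was also chosen after its values were seen. It was at 109, 70.7, and 60.5 CPM in DRG3, DRG4, and DRG5 and at 3.88, 6.40, and 10.2 CPM in fast-growing PNs, so that the groups lay far apart. In slow-growing PNs it was at 9.49 (1079), 9.16 (1198A), 4.57 (1202), 3.83 (1203), and 122 CPM (1206), the last above every control. The mean log2(CPM + 1) of 8 pericyte and smooth muscle markers was 6.61 to 6.93 in controls, 6.78 in slow-growing PN 1206, 4.70 to 5.64 in the other slow-growing PNs, and 5.02 to 5.88 in fast-growing PNs, where 4 of the 8 fell and 2 rose, and that of 11 endothelial markers was 5.08 to 5.46, 5.57, 3.55 to 4.43, and 3.86 to 4.90 in the same order. The part of either list in the level of *Itga8* was not tested. *Itga8* fell by 3.58 on the log2 scale in fast-growing PNs (standard error 0.31, edgeR adjusted p = 5.78e-05), the largest fall among members, and lost the call in 0 of 9 fits with a library left out. In slow-growing PNs the test was not passed (-1.45, 1.10, edgeR adjusted p = 0.383). Its share of the alpha subunit sum per length was 9.11% ± 2.60 in controls and 0.512% ± 0.152 in fast-growing PNs.

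Among members of low level, 2 fell in all PNs. *Itgb6* (chr2:60598292-60722643, minus), an epithelial subunit that pairs with alpha V, was at 5.87, 12.1, and 23.4 CPM in DRG3, DRG4, and DRG5, at 2.81, 0.826, 3.55, 5.11, and 1.64 CPM in slow-growing PNs, and at 0.671, 1.98, and 6.46 CPM in fast-growing PNs. It fell in all PNs (log2 fold change -2.39, standard error 0.55, edgeR adjusted p = 0.00567), in slow-growing PNs (-2.36, 0.59, edgeR adjusted p = 0.0379), and in fast-growing PNs (-2.54, 0.66, edgeR adjusted p = 0.0162), and without DRG5 the call for all PNs was lost (edgeR adjusted p = 0.0857). In slow-growing PNs the call was lost in 5 of 8 fits with a library left out, and in fast-growing PNs without DRG5 (edgeR adjusted p = 0.113). *Itga2b* (chr11:102453297-102470122, minus), the platelet subunit alpha IIb, was at 4.06, 7.20, and 10.7 CPM in controls, at 3.19, 2.63, 4.26, 1.46, and 7.23 CPM in slow-growing PNs, and at 1.21, 1.61, and 3.04 CPM in fast-growing PNs. It fell in all PNs (-1.45, 0.46, edgeR adjusted p = 0.032) and in fast-growing PNs (-2.10, 0.37, edgeR adjusted p = 0.0024), and with muscle and fat covariates the value for all PNs turned to 0.078. Of 8 platelet and megakaryocyte markers, 6 were tested and 5 fell in all PNs, and their summed level was 57.3 to 274 CPM in controls, 9.76 to 61.3 in slow-growing PNs, and 9.54 to 18.7 in fast-growing PNs. The part of blood in the level of *Itga2b* was not tested.

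The leukocyte integrins varied widely among the controls. *Itgax* (chr7:128129547-128150657, plus), the alpha X subunit of dendritic cells and macrophages, was at 0.432, 14.2, and 7.49 CPM in DRG3, DRG4, and DRG5. It was at 1.82, 2.48, 1.22, 0.547, and 1.25 CPM in slow-growing PNs and at 2.92, 10.5, and 26.8 CPM as the lowest, median, and highest of fast-growing PNs, with no overlap between the growth groups (all genes: 2.10%). It was higher in fast- than in slow-growing PNs (log2 fold change 3.19, standard error 0.60, edgeR adjusted p = 0.0449), and the call was lost in 8 of 11 fits with a library left out (edgeR adjusted p up to 0.129). *Itgam*, *Itgal*, *Itgae*, *Itgb2*, and *Itgb7* missed the test between growth groups, with log2 fold changes of 2.02, 0.05, 1.70, 1.15, and 1.33 (edgeR adjusted p = 0.106, 0.975, 0.1, 0.239, and 0.225). *Itgb7*, which pairs with alpha 4 and alpha E on lymphocytes, was picked, like the other leukocyte integrins but *Itgax*, after its values were seen. It fell in slow-growing PNs against controls (3.48 ± 2.39 against 21.8 ± 15.7 CPM, SD, log2 fold change -2.68, standard error 0.69, edgeR adjusted p = 0.0406). The call was lost in 5 of 8 fits with a library left out. It was also lost with library size only, limma-voom, limma-trend, and either the muscle and fat or the SC score covariates. The mean log2(CPM + 1) of 15 leukocyte markers was 3.33 in DRG3, 5.29 in DRG4, and 5.86 in DRG5, 2.12 to 3.83 in slow-growing PNs, and 3.16 to 5.34 in fast-growing PNs. Its part in these levels was not tested.

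**Figure D5:**
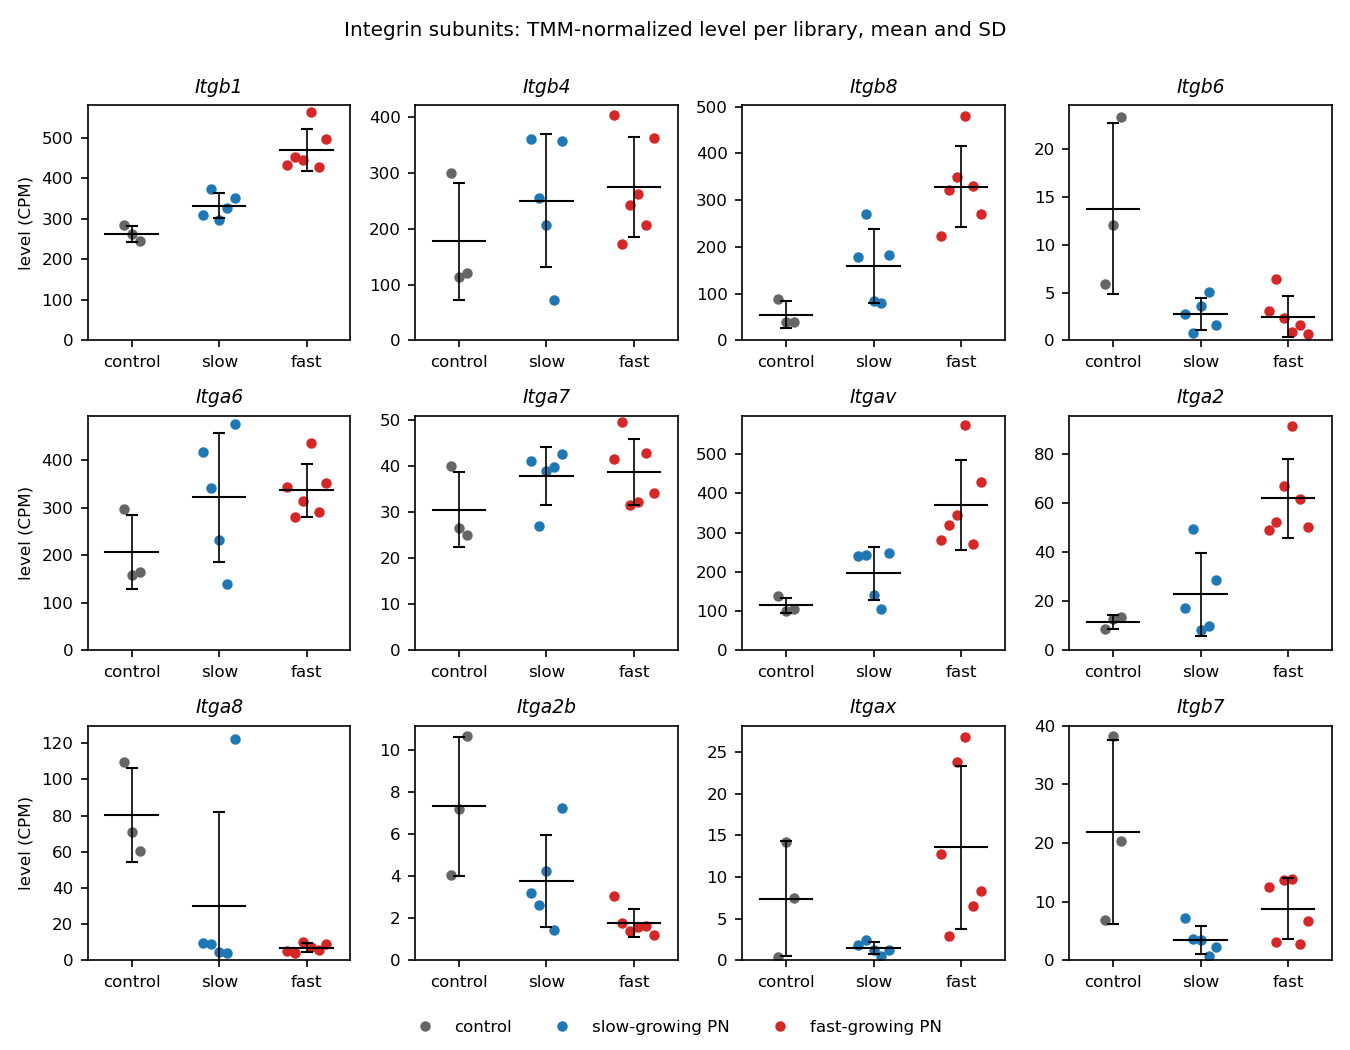
Level in CPM (y axis) of 12 integrin subunit genes in each library (points) by group (x axis), with mean (line) and SD (bar), n = 3, 5, and 6. *Itgb1*, *Itgb8*, *Itgav*, and *Itga2* lie highest in fast-growing PNs, *Itga8* is low in all PNs but slow-growing PN 1206, and *Itgax* is at most 2.48 CPM in every slow-growing PN.

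The remaining alpha and beta subunits (*Itga3*, *Itga4*, *Itga5*, *Itga9*, *Itgb3*, and *Itgb5*) had group means between 15.7 and 84.8 CPM and passed no comparison. The beta 3 subunit gene *Itgb3*, whose subunit pairs with alpha V and alpha IIb, came nearest between fast- and slow-growing PNs (81.8 ± 10.7 against 41.6 ± 16.5 CPM, SD, log2 fold change 0.97, standard error 0.23, edgeR adjusted p = 0.0569), and was picked after its values were seen. *Itgad* was at 0 CPM in 6 libraries and at most at 2.11 CPM, in DRG5. For 14 members the annotated exons overlap a neighbor's, for 4 of them with equal orientation (*Itga1*, *Itga10*, *Itgad*, and *Itgam*) and for 11 with opposite orientation (among them *Lama2*, *Nid1*, *Nid2*, *Itgav*, *Itga7*, *Itga8*, and *Itgb4*). The strand setting of the counting is not given in the sources used here, so reads of the overlapping exons may be shared.

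Genes that act with these members were tested in 4 lists, to be read against the 12.9% of all genes that rose and 13.4% that fell in all PNs, and the 14.8% and 16.7% in fast-growing PNs. Of 23 genes for collagen IV and other basement membrane proteins, 5 rose (21.7%) and 1 fell (4.35%) in all PNs, and 6 rose (26.1%) and 4 fell (17.4%, near the share of all genes) in fast-growing PNs (medians 0.21 and 0.32 in log2, against 0.10 and 0.02 over all genes). Those with the lowest p were *Frem1* (13.5 ± 6.10 CPM in controls, 33.6 ± 10.1 in slow-growing, and 51.8 ± 6.96 in fast-growing PNs), *Col15a1* (67.4 ± 26.5, 160 ± 67.6, and 350 ± 76.6), a collagen of the outer basement membrane, and *Fbln2* (51.3 ± 16.2, 92.2 ± 21.5, and 204 ± 62.2), a laminin- and nidogen-binding fibulin. *Fbln2* was also higher in fast- than in slow-growing PNs (log2 fold change 1.14, standard error 0.23, edgeR adjusted p = 0.0449). Of 27 genes of the dystroglycan complex and its glycosylation, 24 were tested, 7 rose (29.2%) and 3 fell (12.5%, near the share of all genes) in all PNs, with a median log2 fold change of 0.28. *Ispd*, which makes the CDP-ribitol used to glycosylate dystroglycan, rose in all PNs (1.43, 0.21, edgeR adjusted p = 0.000214) and in slow-growing PNs (1.31, 0.26, edgeR adjusted p = 0.016), as did the O-mannosyltransferase *Pomt2* (0.88, 0.14, edgeR adjusted p = 0.000399, and 0.91, 0.19, edgeR adjusted p = 0.0175). The muscle sarcoglycan *Sgca* fell in all PNs (-3.77, 0.69, edgeR adjusted p = 0.0013), beside the fall of 9 of 15 skeletal muscle markers.

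Of 28 genes of the integrin adhesion machinery, 8 rose (28.6%) and 3 fell (10.7%) in all PNs (median log2 fold change 0.13, against 0.10 over all genes), and the tensin *Tns3* (0.84, standard error 0.23, edgeR adjusted p = 0.0146) and the focal adhesion protein *Zyx* (-0.63, 0.17, edgeR adjusted p = 0.0162) moved in opposite directions. *Fermt1*, a kindlin of epithelia, rose from 0.564 ± 0.314 CPM in controls to 1.42 ± 0.465 in slow-growing and 1.56 ± 0.453 in fast-growing PNs (1.39, 0.41, edgeR adjusted p = 0.0221). Of 17 other ligands and receptors of laminins and integrins, 3 rose and 3 fell in all PNs (17.6% each), and 7 rose (41.2%) and 2 fell (11.8%) in fast-growing PNs, with medians of 0.61 and 0.78 in log2. The syndecan *Sdc3* (0.71, 0.20, edgeR adjusted p = 0.0195) and the collagen receptor *Ddr1* (1.08, 0.32, edgeR adjusted p = 0.0219) rose. *Rpsa*, which encodes a ribosomal protein also described as a laminin receptor, fell from 530 ± 126 CPM in controls to 185 ± 41.2 in slow-growing and 259 ± 50.4 in fast-growing PNs (-1.24, 0.23, edgeR adjusted p = 0.00129).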

How the data were processed

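RNA-seq had been performed on 14 libraries of total RNA (Ovation v2 amplification kit). Per the labels and the study's methods, the authors aligned reads to mm10 with TopHat2 2.0.9, and counted reads per gene with featureCounts 1.5.2. The deposited table holds these raw counts for 24062 genes, with no blank or total entries. The authors also deposited log2 values for 16382 genes after TMM normalization in edgeR 3.16.5, used here for 1 alternative. The strand setting and the sex and batch of each library are not given in the sources used here.

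Counts were filtered with filterByExpr, TMM-scaled, and tested with the quasi-likelihood test in edgeR 4.0.16 (R 4.3.3), in a separate fit for each of 4 comparisons with Benjamini-Hochberg adjustment over all genes tested. The 3 comparisons with controls share the same 3 control libraries. The standard error is the fold change divided by the square root of F. Alternatives were DESeq2 1.42.0, limma 3.58.1 (voom, and trend on the deposited log2 values), RLE factors, library size only, other filters, 1 fit of all libraries, marker score covariates, and leaving out each library. Within-library ratios, with 0.5 added to each count, were compared by exact two-sided permutation tests over libraries. Scripts were tested on simulated data. Levels per length used the longest GENCODE M21 transcript, and promoters came from the RefSeq table. The plots used Python 3.11.15 with matplotlib 3.10.9.

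The symbol rule uses no measured value, but the members and gene lists were chosen with earlier results of these data known. The rule for named genes took 14 members of known function in nerve and basement membrane whatever their call, and every member called in all PNs against controls or in fast- against slow-growing PNs. From each gene list it took the 3 genes of lowest adjusted p in the comparison of all PNs with controls. The values of 1 member are not reported here.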

Additional observations from a re-analysis of the deposited data

Results flagged for a closer look

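Of 84 groups of members and libraries tested with Dixon's criterion, 6 had 1 library far from the others. Chance gives about 1 in 20, and the rate found was near that. *Itga2b* in fast-growing PN 1053 was at 3.04 CPM, with the other 5 fast-growing PNs between 1.21 and 1.77. *Itga7* in slow-growing PN 1198A was at 27.0 CPM, with the other 4 between 39.0 and 42.7. *Itga8* in slow-growing PN 1206 was at 122 CPM, with the other 4 between 3.83 and 9.49. *Itgad* in slow-growing PN 1079 was at 0.532 CPM, with the other 4 between 0 and 0.102. In fast-growing PN 1191, *Lama1* was at 0.0756 CPM, with the other 5 between 2.49 and 3.74, and *Lamb3* was at 2.04 CPM, with the other 5 between 0 and 0.269. In PN 1191, 3 counts corresponded to 0.227 CPM, so its *Lama1* level rests on fewer counts than that.

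*Itgax* differed between the growth groups, with a log2 fold change of 3.19 in fast- against slow-growing PNs (edgeR with Benjamini-Hochberg adjustment, adjusted p = 0.0449, all 6 fast-growing above all 5 slow-growing PNs). Over the alternatives other than leaving out a library its adjusted p ranged from 9.01e-06 to 0.279, and with a library left out from 0.0151 to 0.129.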

How the results depend on the processing

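Counts of members at an adjusted p under 0.05 moved with the settings. For all PNs against controls, members higher numbered 7 with limma-trend and 0 with muscle and fat or SC score covariates. Members lower numbered 5 with DESeq2 or 1 fit of all libraries and 6 with limma-voom. They numbered 0 with muscle and fat covariates and 1 with the SC score. The main fit called 4283 genes in either direction. DESeq2 called 5170, 1 fit 4865, limma-voom 4291, limma-trend 4223, muscle and fat covariates 452, and the SC score 1278. For slow-growing PNs, members higher numbered 3 with DESeq2 or 1 fit and 0 with either covariate set or limma-trend. Members lower numbered 4 with DESeq2, 1 with library size only, limma-voom, or limma-trend, and 0 with either covariate set. All genes called there numbered 1769 in the main fit, 3529 with DESeq2, and 3280 with 1 fit. They numbered 1708 with library size only, 1844 with limma-voom, 1753 with limma-trend, and 0 with either covariate set. For fast-growing PNs, members higher numbered 18 with DESeq2, 15 with limma-voom, and 14 with 1 fit of all libraries. There, muscle and fat covariates left 0 higher and 0 lower, and the SC score left 1 lower. The main fit for fast-growing PNs called 5043 genes in either direction. DESeq2 called 5868, limma-voom 4790, 1 fit 4801, muscle and fat covariates 0, and the SC score 3973. Between fast- and slow-growing PNs, members higher numbered 12 with DESeq2 (1570 genes called in all, against 196), 3 with the stricter filter (313), 2 with 1 fit (423), and 0 with limma-voom (34), muscle and fat covariates (0), or the SC score (7).

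With 1 library left out, members higher for all PNs ranged from 1 (without DRG4 or DRG5) to 14 (without slow-growing PN 1203). Members lower ranged from 0 (without DRG5) to 4 (without DRG3). All genes called there numbered 2476 without DRG4, 2061 without DRG5, 4779 without 1203, and 4264 without DRG3, against 4283 with all libraries. For slow-growing PNs, members higher ranged from 0 (without DRG4) to 4 (without PN 1203) and lower from 0 (without DRG4) to 6 (without DRG3). All genes called there numbered 685 without DRG4, 1954 without 1203, and 2454 without DRG3, against 1769 with all libraries. For fast-growing PNs, members lower ranged from 2 (without DRG5, 3342 genes called in all) to 5 (without PN 1191, 5127 genes). All libraries together gave 5043 genes. Between the growth groups, members higher ranged from 0 (without PN 1079, 2 genes called in all) to 12 (without PN 1198A, 1194 genes). Log2 fold changes ranged from -0.42 to 1.04 for *Itgax* in all PNs and, between the growth groups, from -0.13 to 0.25 for *Itga6*, -0.072 to 0.083 for *Itga7*, -0.10 to 0.32 for *Itgb4*, and -0.67 to 0.18 for *Itgb6*. The log2 ratio difference in all PNs ranged from -1.02 to -0.90 for *Lama4*/*Lama2* and -0.26 to 0.38 for *Itgb4*/*Itgb1*.

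With muscle and fat covariates the sign turned for *Itga2* (-0.46), *Itga2b* (0.078), *Itgax* (-4.05), *Itgb1* (-0.014), *Lama4* (-0.20), and *Lamb2* (-0.81) in all PNs, and for *Itgax* (-0.53), *Itgb4* (-1.21), and *Lamb2* (-1.20) in fast-growing PNs. *Itgax* in all PNs was also -0.57 in 1 fit of all libraries. The cause was not tested. Every control lay above every PN in both the muscle and the fat score, so fits with these covariates can hardly separate group from score. Library size scaling shifted the median of all genes in fast-growing PNs from 0.02 to 0.12. Counts limit members under about 1 CPM, such as *Itgad* and *Lamb3*. No paired analysis was possible because the libraries of different groups share no replicate numbers.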
